A study of Mus musculus with 12 samples.

Results

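The 10 immediate early genes Egr1, Egr3, Egr4, Fos, Fosb, Junb, Arc, Npas4, Nr4a1 and Dusp1 were followed across the hippocampus. They were found by gene symbol in a table of UMI counts (unique molecular identifiers, 1 for each captured cDNA molecule), and each symbol matched 1 of its 32546 genes. Photo-isolation chemistry (PIC) was applied to brain sections of male ICR mice aged 8 weeks. In PIC a caged reverse transcription primer is freed by light, so that only cDNA of the irradiated region enters a 3′-end library made with CEL-seq2. CA1, CA3 or the dentate gyrus (DG) was irradiated in 4 histological conditions: fresh-frozen sections of unfixed tissue in which 0.1 N HCl acted for 5 min as permeabilization, the same kind of sections permeabilized in TE at 70 °C for 1 h, frozen sections of tissue fixed with 4% PFA and permeabilized with TE, and paraffin sections of tissue fixed with 4% PFA and permeabilized with TE. In the study's protocol frozen and paraffin sections alike were also placed in PFA on the slide. The conditions are called HCl, TE, fixed frozen and paraffin here. Each of the 12 combinations was 1 library that pooled 4 barcoded biological replicates, which makes 48 replicates. Within a condition, region and library therefore cannot be told apart, nor can condition, animals and library between conditions. The series description names CA2 where the sample titles and the paper name CA3, and CA3 was used. No stimulus is named for the mice.

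Immediate early genes are transcribed within minutes of a stimulus, without new protein synthesis, because the factors that drive them are already in the cell. In neurons, synaptic activity and calcium entry reach them through MAP kinases and calcium-dependent kinases, which act on CREB and on SRF with its partners. Egr1, Egr3, Egr4, Fos, Fosb, Junb, Npas4 and Nr4a1 encode transcription factors, Arc encodes a protein that regulates AMPA receptor trafficking at synapses, and Dusp1 encodes a phosphatase that switches off MAP kinases. In the hippocampus they are widely used as markers of recently active neurons.

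Promoter windows were read because the members are known as a group that is induced through shared promoter elements. RefSeq windows of GRCm38.p6, 250 bases before to 50 bases after the start, were given for 7 of the 10 genes. CREB binds the cAMP response element, TGACGTCA, and its short form TGACG, which reads CGTCA on the other strand and is contained in it. TGACG or CGTCA was present in 7 of the 7 windows and in 20.8% of all 32851 windows. The full element was present in the Dusp1 window alone and in 1.79% of all windows, and the CArG box bound by SRF was present in 0 of the 7 and in 1.63% of all. These are exact matches of letters in a window of 300 bases, not measured binding, and they say nothing of sites outside it or of near matches. No window was given for Egr1, Egr3 and Arc. The windows of Egr4, Fos, Nr4a1 and Dusp1 are shown as examples that hold 2 to 4 matches each, with TGACG and CGTCA in capitals, 5′ to 3′ on the gene's strand.
Egr4 (chr6:85513540-85513839, minus strand): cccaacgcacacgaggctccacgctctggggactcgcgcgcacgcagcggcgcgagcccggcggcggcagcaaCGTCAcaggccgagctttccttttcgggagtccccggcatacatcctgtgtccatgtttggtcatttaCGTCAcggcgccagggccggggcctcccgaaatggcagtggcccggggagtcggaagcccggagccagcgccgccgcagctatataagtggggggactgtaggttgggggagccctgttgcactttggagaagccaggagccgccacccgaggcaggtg
Fos (chr12:85473640-85473939, plus strand): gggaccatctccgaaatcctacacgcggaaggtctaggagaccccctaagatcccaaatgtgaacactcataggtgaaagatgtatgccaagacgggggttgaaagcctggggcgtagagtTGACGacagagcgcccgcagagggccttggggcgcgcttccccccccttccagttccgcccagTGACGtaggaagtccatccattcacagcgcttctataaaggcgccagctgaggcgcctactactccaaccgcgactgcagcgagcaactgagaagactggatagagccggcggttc
Nr4a1 (chr15:101266596-101266895, plus strand): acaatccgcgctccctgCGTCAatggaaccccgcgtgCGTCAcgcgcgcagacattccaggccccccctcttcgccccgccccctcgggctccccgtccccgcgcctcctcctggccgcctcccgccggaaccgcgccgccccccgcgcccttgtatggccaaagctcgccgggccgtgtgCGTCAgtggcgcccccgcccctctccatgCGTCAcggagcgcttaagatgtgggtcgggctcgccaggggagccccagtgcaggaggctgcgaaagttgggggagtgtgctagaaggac
Dusp1 (chr17:26508423-26508722, minus strand): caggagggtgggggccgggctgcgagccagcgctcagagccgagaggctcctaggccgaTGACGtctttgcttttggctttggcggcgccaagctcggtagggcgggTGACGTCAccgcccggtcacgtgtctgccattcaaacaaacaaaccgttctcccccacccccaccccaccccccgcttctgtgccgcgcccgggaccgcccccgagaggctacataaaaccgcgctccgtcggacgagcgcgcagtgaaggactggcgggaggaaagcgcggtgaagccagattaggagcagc
In the Fos window the match nearest the start lay at positions -66 to -62 from it, and in the Nr4a1 window at -40 to -36. Of the other windows, that of Npas4 held 2 matches and those of Fosb and Junb 1 each.

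In GRCm38 (GENCODE M21) the members were annotated as follows, with Egr3 on chromosome 14 (70077203 to 70082614), Egr4 on 6 (85511121 to 85513589), Fos on 12 (85473890 to 85477273), Arc on 15 (74669083 to 74672570), Nr4a1 on 15 (101254269 to 101274795), Npas4 on 19 (4984355 to 4990316), Fosb on 7 (19302696 to 19310051) and Egr1 on 18 (34859823 to 34864984). These 8 overlapped no other annotated gene. Junb on 8 (84974484 to 84978718) shared 173 of its 2301 exon bases with Prdx2 on the opposite strand, and Dusp1 on 17 (26505590 to 26562128) shared 11 of 3311 with Ergic1. No strand setting was given for the counting, so that reads from these shared bases cannot be assigned to either gene.

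The total per replicate was 35932 to 1111804 UMIs, with medians of 731106 in HCl, 629964 in TE, 122520 in fixed frozen and 67528 in paraffin sections, and replicate 4 was the lowest in 12 of 12 libraries. Over all 48 replicates Arc gave 1896 UMIs, Egr1 1392, Egr3 943, Nr4a1 641, Egr4 377, Junb 356, Dusp1 273, Fos 140, Npas4 60 and Fosb 26. Egr1 and Egr3 were detected in 47 replicates each, Fos in 37, Npas4 in 30 and Fosb in 16. The labels of the regions were checked against markers: 9 of 9 DG markers were highest in the DG libraries in all 4 conditions, 3 or 4 of 4 CA1 markers in CA1 and 4 or 5 of 6 CA3 markers in CA3. Of 5 CA2 markers, 0, 4, 2 and 0 were highest in the CA3 library with HCl, with TE, in fixed frozen and in paraffin sections. Levels below are CPM, the UMIs of a gene scaled to the total of its replicate, as mean ± SD over n = 4 replicates of a library, with replicates in the order 1 to 4. Regions were compared within a condition by edgeR's quasi-likelihood test with Benjamini-Hochberg adjustment over all genes tested, an adjusted p under 0.05 counted as a call, and log2 fold changes are those of the fit. For region pairs in the 2 fixed conditions, for paraffin against frozen sections and for interaction terms, the p-values rest largely on a spread shared over genes. That spread is not the member's own. The other p-values draw on such a shared spread as well. In bulk material a lower level from fewer cells and from less RNA per cell cannot be told apart.

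Egr1, a zinc-finger factor of the EGR family, was higher in CA1 than in DG in all 4 conditions. With TE it read 233, 200.3, 158 and 99.8 CPM in CA1 (173 ± 57.6 CPM), 60.4, 71.1, 82.6 and 56.7 CPM in CA3 (67.7 ± 11.6 CPM) and 22.4, 11.9, 41.9 and 17.0 CPM in DG (23.3 ± 13.1 CPM). The 3 regions did not overlap, in the order CA1, CA3, DG. CA1 exceeded DG 7.41-fold, with a log2 fold change of 2.89 ± 0.30 (SE) and an edgeR adjusted p of 5.45e-10. CA3 exceeded DG 2.92-fold (adjusted p = 0.000354), and CA1 exceeded CA3 2.56-fold (adjusted p = 7.01e-05).

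With HCl the means of Egr1 were lower but in the same order. CA1 read 65.7, 88.5, 113 and 126 CPM, CA3 27.9, 34.3, 39.5 and 26.0 CPM and DG 19.9, 10.9, 22.8 and 0 CPM, again without overlap. CA1 exceeded DG 6.04-fold (2.60 ± 0.36 (SE) on the log2 scale, edgeR adjusted p = 1.07e-07) and CA3 2.84-fold (adjusted p = 3.29e-05). CA3 against DG did not pass the test (log2 fold change 1.08, adjusted p = 0.0657). It passed with the replicate number as a block (adjusted p = 0.00115) and without DG replicate 3 (adjusted p = 0.0389).

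In fixed frozen sections Egr1 read 289.7, 171, 307 and 258 CPM in CA1, 112, 42.3, 133 and 75.8 CPM in CA3 and 67.1, 68.4, 66.0 and 138 CPM in DG. CA1 lay above both other regions without overlap, while CA3 and DG overlapped, and DG replicate 4 stood above the other 3 DG replicates. CA1 exceeded DG 3.01-fold (edgeR adjusted p = 8.97e-07) and CA3 2.63-fold (adjusted p = 0.000363), and CA3 against DG had a log2 fold change of 0.22 (95% interval -0.45 to 0.89). In paraffin sections, with 1 to 12 UMIs per replicate, CA1 read 64.0, 108, 155 and 111 CPM, CA3 99.3, 80.6, 62.7 and 150.4 CPM and DG 6.78, 26.7, 49.3 and 46.7 CPM. DG lay below both other regions, which overlapped each other. CA1 over DG was called (3.34-fold, adjusted p = 0.0257) but not without any 1 of CA1 replicates 2 and 3 and DG replicates 1 and 2 (adjusted p of up to 0.201), and CA3 over DG was not called (log2 fold change 1.57, adjusted p = 0.063).

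**Figure D1:**
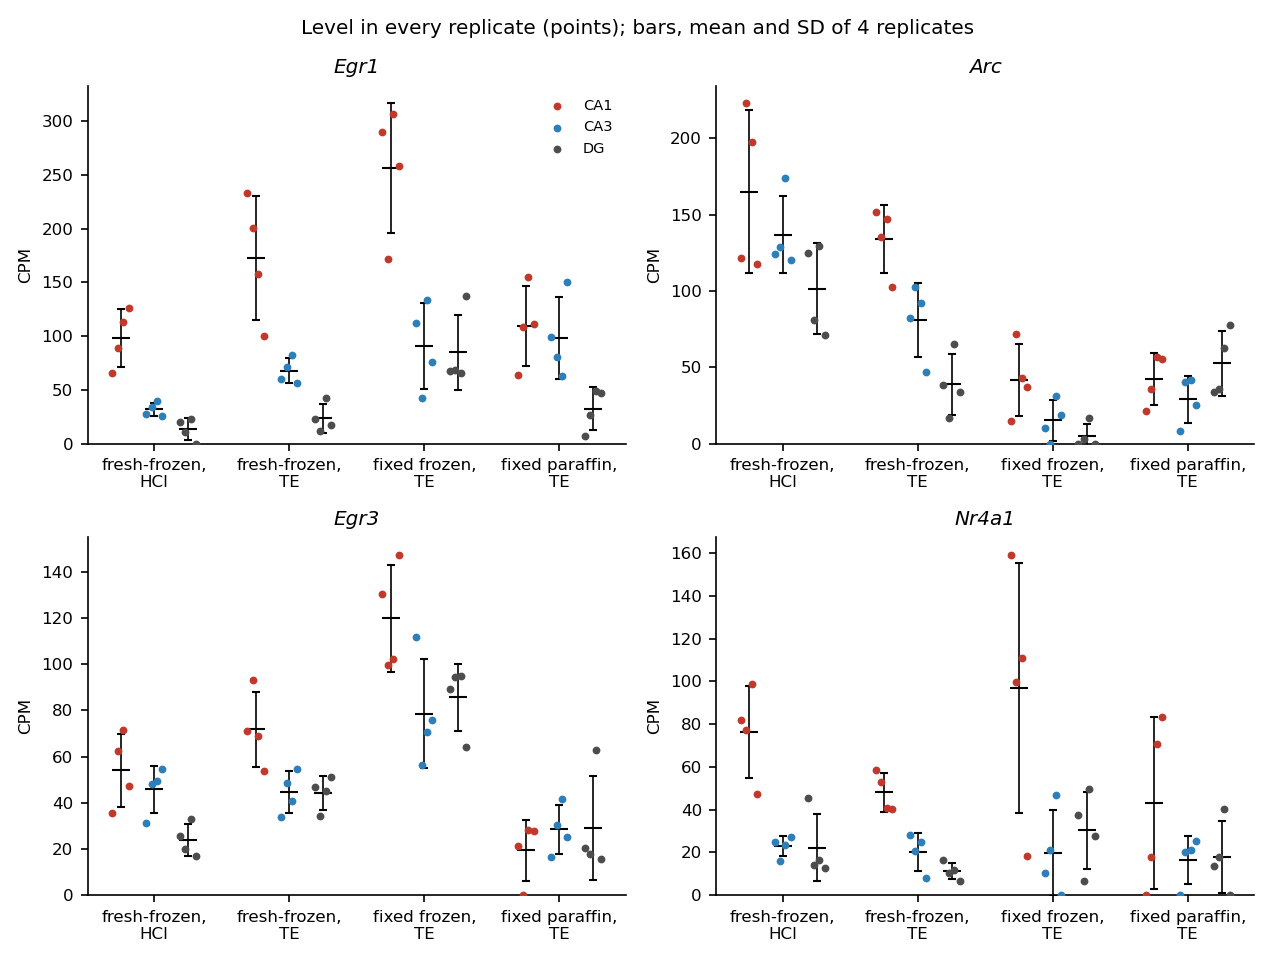
CPM of Egr1, Arc, Egr3 and Nr4a1 (y axes) in the 4 histological conditions (x axes) for CA1 (red), CA3 (blue) and DG (grey). Points are replicates and bars are mean and SD of 4 replicates. Egr1 in CA1 lay above DG without overlap in all 4 conditions, and Arc with TE lay above Arc in fixed frozen sections without overlap in each region.

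Egr3, which shares its zinc-finger region with Egr1, differed less between regions. With HCl it read 35.6, 62.3, 71.3 and 47.1 CPM in CA1, 31.1, 48.2, 49.4 and 54.7 CPM in CA3 and 25.5, 20.2, 33.0 and 16.7 CPM in DG. DG had the lowest mean and overlapped CA3 but not CA1. CA1 over DG was called (2.21-fold, 1.15 ± 0.31 (SE) on the log2 scale, edgeR adjusted p = 0.00575), except without CA1 replicate 3 (adjusted p = 0.0617). CA3 over DG was called (1.84-fold, adjusted p = 0.0438), except without any 1 of CA3 replicates 2, 3 and 4 and DG replicates 1, 2 and 4 (adjusted p of up to 0.145).

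With TE, Egr3 read 71.9 ± 16.3 CPM in CA1, 44.5 ± 9.08 CPM in CA3 and 44.3 ± 7.20 CPM in DG, and CA1 lay above DG without overlap (1.71-fold, edgeR adjusted p = 0.0247). This call was lost without any 1 of CA1 replicate 2 and DG replicates 2 and 3 (adjusted p of up to 0.114). CA3 and DG did not differ beyond their spread (log2 fold change 0.07, 95% interval -0.42 to 0.56). CA1 over CA3 missed the threshold (log2 fold change 0.71, adjusted p = 0.056) and passed it with the replicate block (adjusted p = 0.00209). In fixed frozen sections the means were 119.9 ± 23.1 CPM in CA1, 78.7 ± 23.7 CPM in CA3 and 85.7 ± 14.6 CPM in DG, and in paraffin sections they were 19.4 ± 13.3 CPM, 28.4 ± 10.6 CPM and 29.1 ± 22.5 CPM, with no call between regions in either, although CA1 lay above DG without overlap in fixed frozen sections (edgeR adjusted p = 0.715).

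Egr4, the third zinc-finger factor of the family measured here, was highest in CA1 in fresh-frozen sections. With TE it read 40.2, 21.1, 44.6 and 56.7 CPM in CA1, 16.2, 16.2, 13.9 and 15.6 CPM in CA3 and 8.13, 8.52, 10.1 and 10.2 CPM in DG, and the 3 regions did not overlap. CA1 exceeded DG 4.31-fold (edgeR adjusted p = 6.38e-05) and CA3 2.52-fold (adjusted p = 0.00551). CA3 against DG was not called (log2 fold change 0.79, adjusted p = 0.266). With HCl, CA1 read 21.9, 42.6, 35.7 and 7.86 CPM, where replicate 4 held 1 UMI, and DG read 17.0, 17.1, 6.35 and 8.37 CPM. The regions overlapped and CA1 over DG was called (2.55-fold, adjusted p = 0.0159), except without any 1 of CA1 replicates 2 and 3 and DG replicate 3 (adjusted p of up to 0.122). In the fixed conditions a replicate held 0 to 8 UMIs of Egr4, and no region pair was called.

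Fos, Fosb and Junb encode components of the AP-1 factor, and each was sparse. Fos with HCl read 12.3, 9.84, 12.7 and 31.4 CPM in CA1, 3.22, 15.0, 7.41 and 2.73 CPM in CA3 and 0, 3.10, 2.54 and 4.19 CPM in DG, from 30, 25 and 5 UMIs. CA1 lay above DG without overlap (5.05-fold, log2 fold change 2.34 ± 0.77 (SE), edgeR adjusted p = 0.00988). With TE the means were 9.32 ± 5.00 CPM in CA1, 4.04 ± 2.69 CPM in CA3 and 1.86 ± 1.67 CPM in DG, and CA1 over DG was called (4.49-fold, adjusted p = 0.039) except without any 1 of CA1 replicates 1 and 2 and DG replicates 2, 3 and 4 (adjusted p of up to 0.238). In fixed frozen sections CA1 read 14.5, 55.3, 8.53 and 55.4 CPM and DG 7.45, 6.51, 4.12 and 9.17 CPM, and the call (4.83-fold, adjusted p = 0.0371) was lost without any 1 of CA1 replicates 2 and 4 and DG replicates 2 and 3 (adjusted p of up to 0.462). In paraffin sections the fitted log2 fold change was 2.48 from 8 UMIs in CA1 and 3 in DG, with an adjusted p of 0.155. The fitted fold of Fos lay between 4.49 and 5.59 in the 4 conditions, and no region pair with CA3 was called.

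Junb with HCl read 27.4, 54.1, 27.6 and 15.7 CPM in CA1, 18.2, 22.5, 12.3 and 12.3 CPM in CA3 and 17.0, 10.9, 17.8 and 25.1 CPM in DG. The regions overlapped. CA1 over DG was just inside the threshold (2.04-fold, edgeR adjusted p = 0.0446) and was lost without any 1 of CA1 replicates 2 and 3 and DG replicates 1, 2 and 3 (adjusted p of up to 0.317). With TE the means were 20.6 ± 5.80 CPM in CA1, 10.7 ± 4.85 CPM in CA3 and 19.9 ± 5.28 CPM in DG. DG lay above CA3 without overlap, but neither CA3 against DG (log2 fold change -0.76, adjusted p = 0.29) nor CA1 against DG (0.20, adjusted p = 0.807) was called. After fixation and freezing Junb was uneven between replicates, with 0, 15, 4 and 0 UMIs in CA1. Fosb gave 24 UMIs in the 24 fresh-frozen replicates and 0 in the 3 fixed frozen libraries, which allows up to 7.12 CPM in CA1, 7.14 CPM in CA3 and 3.78 CPM in DG (3 UMIs of the library, counting error only). Its 2 UMIs in paraffin sections were both in CA3. It had enough UMIs for a test of regions with HCl alone, and CA3 was not called against DG (-0.22) or against CA1.

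**Figure D2:**
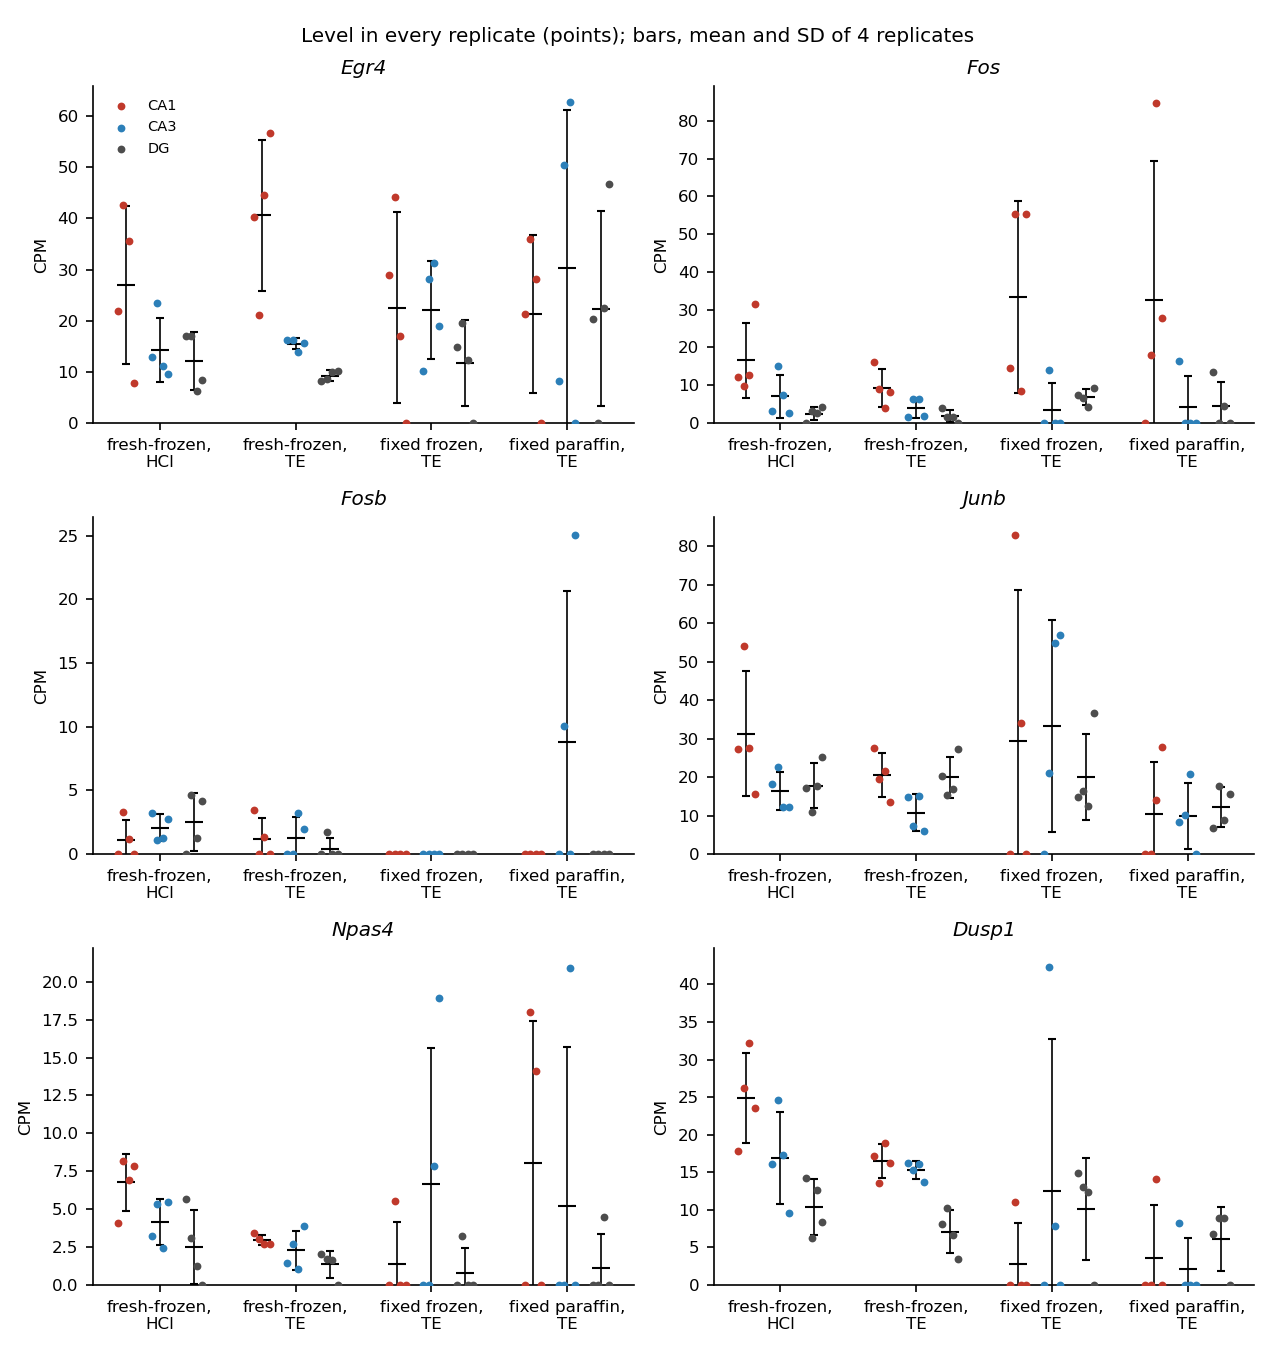
CPM of Egr4, Fos, Fosb, Junb, Npas4 and Dusp1 (y axes) in the 4 histological conditions (x axes) for CA1 (red), CA3 (blue) and DG (grey). Points are replicates and bars are mean and SD of 4 replicates. Fosb read 0 in all 12 fixed frozen replicates, and Egr4 with TE separated the 3 regions.

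Nr4a1, an orphan nuclear receptor, was called higher in CA1 than in DG and in CA3 in the 3 frozen conditions. With HCl it read 82.1, 77.0, 98.9 and 47.1 CPM in CA1, 24.7, 16.1, 23.5 and 27.4 CPM in CA3 and 45.4, 14, 16.5 and 12.6 CPM in DG. CA1 lay above both regions without overlap, although DG replicate 1 approached its lowest replicate, and CA3 and DG overlapped. CA1 exceeded DG 3.93-fold (1.97 ± 0.33 (SE) on the log2 scale, edgeR adjusted p = 7.43e-06) and CA3 3.51-fold (adjusted p = 3.93e-06). With TE, CA1 read 58.6, 52.7, 40.5 and 40.5 CPM, CA3 28.0, 20.7, 24.7 and 7.82 CPM and DG 16.3, 10.2, 11.7 and 6.79 CPM, and CA1 again stood apart (4.22-fold over DG, adjusted p = 8.91e-06, and 2.30-fold over CA3, adjusted p = 0.00638).

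After fixation and freezing Nr4a1 read 159, 99.5, 111 and 18.4 CPM in CA1, 10.2, 21.2, 47.0 and 0 CPM in CA3 and 37.3, 6.51, 49.5 and 27.5 CPM in DG. CA1 replicate 4, with 1 UMI, fell among the other regions, while the other 3 CA1 replicates stood above them. CA1 over DG (3.40-fold, edgeR adjusted p = 0.000872) was called except without DG replicate 2 (adjusted p = 0.0521), and CA1 over CA3 (4.04-fold, adjusted p = 0.00302) was called. In paraffin sections the means were 43.0 ± 40.3 CPM in CA1, 16.5 ± 11.2 CPM in CA3 and 17.9 ± 16.8 CPM in DG, with no call. Npas4, a neuron-specific factor that responds to calcium entry, gave 1 to 6 UMIs in the replicates of CA1 in fresh-frozen sections. Its means there were 6.76 ± 1.86 CPM in CA1, 4.13 ± 1.51 CPM in CA3 and 2.51 ± 2.46 CPM in DG with HCl, and 2.96 ± 0.353 CPM, 2.29 ± 1.28 CPM and 1.35 ± 0.917 CPM with TE. With TE its CA1 replicates lay above DG without overlap, by 1 to 3 UMIs against 0 or 1, and no region pair was called.

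Arc, the synaptic effector, had its highest mean in CA1 in the 3 frozen conditions. With HCl it read 122, 223, 198 and 118 CPM in CA1, 124, 129, 174 and 120.3 CPM in CA3 and 125, 80.7, 129 and 71.2 CPM in DG, all overlapping. CA1 over DG was called (1.66-fold, 0.73 ± 0.22 (SE) on the log2 scale, edgeR adjusted p = 0.0147), except without any 1 of CA1 replicates 2 and 3 and DG replicates 2 and 4 (adjusted p of up to 0.12). CA3 over DG was not called (log2 fold change 0.43, adjusted p = 0.212) and passed with the replicate block (adjusted p = 0.0117).

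With TE, Arc read 152, 136, 147 and 103 CPM in CA1, 82.5, 103, 92.2 and 46.9 CPM in CA3 and 38.6, 17.0, 65.4 and 34.0 CPM in DG. CA1 and DG did not overlap, and CA3 lay between and overlapped both. CA1 exceeded DG 3.51-fold (edgeR adjusted p = 9.18e-07). CA3 exceeded DG 2.17-fold (adjusted p = 0.00787), except without DG replicate 2 (adjusted p = 0.0716). CA1 exceeded CA3 1.63-fold (adjusted p = 0.0278), except without any 1 of CA1 replicates 1, 2 and 3 and CA3 replicate 4 (adjusted p of up to 0.108).

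After fixation and freezing, with 0 to 13 UMIs per replicate, Arc read 14.5, 71.9, 42.6 and 36.9 CPM in CA1, 10.2, 0, 31.3 and 18.9 CPM in CA3 and 0, 3.26, 16.5 and 0 CPM in DG. DG was the lowest, with 5 UMIs in all. CA1 over DG was called (6.69-fold, edgeR adjusted p = 0.00242), except without CA1 replicate 2 (adjusted p = 0.137). In paraffin sections CA1 read 21.3, 36.0, 56.5 and 55.7 CPM, CA3 8.27, 40.3, 41.8 and 25.1 CPM and DG 33.9, 35.6, 62.8 and 77.8 CPM. All 3 overlapped, the DG mean was the highest, and no pair was called (CA1 over DG -0.26, 95% interval -1.5 to 0.97). Dusp1, the MAP kinase phosphatase, was called between regions with HCl alone. It read 17.8, 26.2, 32.2 and 23.6 CPM in CA1 and 14.2, 6.20, 12.7 and 8.37 CPM in DG, without overlap (2.43-fold, adjusted p = 0.0236), and the call was lost without any 1 of CA1 replicates 2 and 3 and DG replicate 2 (adjusted p of up to 0.135). With TE the same pair did not overlap but was not called (16.5 ± 2.24 CPM against 7.12 ± 2.87 CPM, adjusted p = 0.0913), nor was CA3 (15.3 ± 1.17 CPM) over DG (adjusted p = 0.13).

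Counted together, the members called between CA1 and DG were all higher in CA1. With HCl 8 of 9 tested members were called higher in CA1, where 8.77% of all genes tested were, with TE 6 of 9 (5.11% of all genes), in fixed frozen sections 4 of 8 (3.36%) and in paraffin sections 1 of 6 (0.881%). The median log2 fold change of the tested members was 1.30 against 0.04 over all genes tested with HCl, 1.81 against 0.01 with TE, 1.37 against -0.11 in fixed frozen and 0.52 against -0.17 in paraffin sections. With DESeq2 the calls were 4, 4, 2 and 0. It gave no adjusted p to 1, 1, 2 and 6 of the tested members in that order. In paraffin sections these were all the tested members, so that DESeq2 could call none there. Thinned to the smallest total, 35932 UMIs, members under 10 UMIs were not tested and 2 calls of 19 remained, Egr1 with HCl (adjusted p = 0.033) and with TE (adjusted p = 0.0467).

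Markers of other cells moved with the same pair of regions. The 6 oligodendrocyte markers, among them Mbp and Mog, summed to 9106 to 18467 CPM in CA1 and 3293 to 5325 CPM in DG with HCl, to 5836 to 10113 CPM and 2522 to 3369 CPM with TE, and to 7199 to 15762 CPM and 1789 to 2829 CPM in fixed frozen sections. All 6 were called higher in CA1 in each of these 3 conditions and 2 in paraffin sections, and none was at 0 in a library. The 6 astrocyte markers were called lower in CA1 than in DG in 3, 2, 3 and 1 cases and never higher, and of the 5 interneuron markers 1, 3, 2 and 0 were called higher and 0, 0, 0 and 1 lower. Of 6 microglia markers 1 was called higher with HCl, and no endothelial marker was called. Of the choroid plexus markers 1 was called higher with HCl, 2 lower with TE and 1 lower in paraffin sections, and of the erythrocyte genes 1 was called lower with HCl and 1 with TE. Their part in the difference of the members was not tested.

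**Figure D3:**
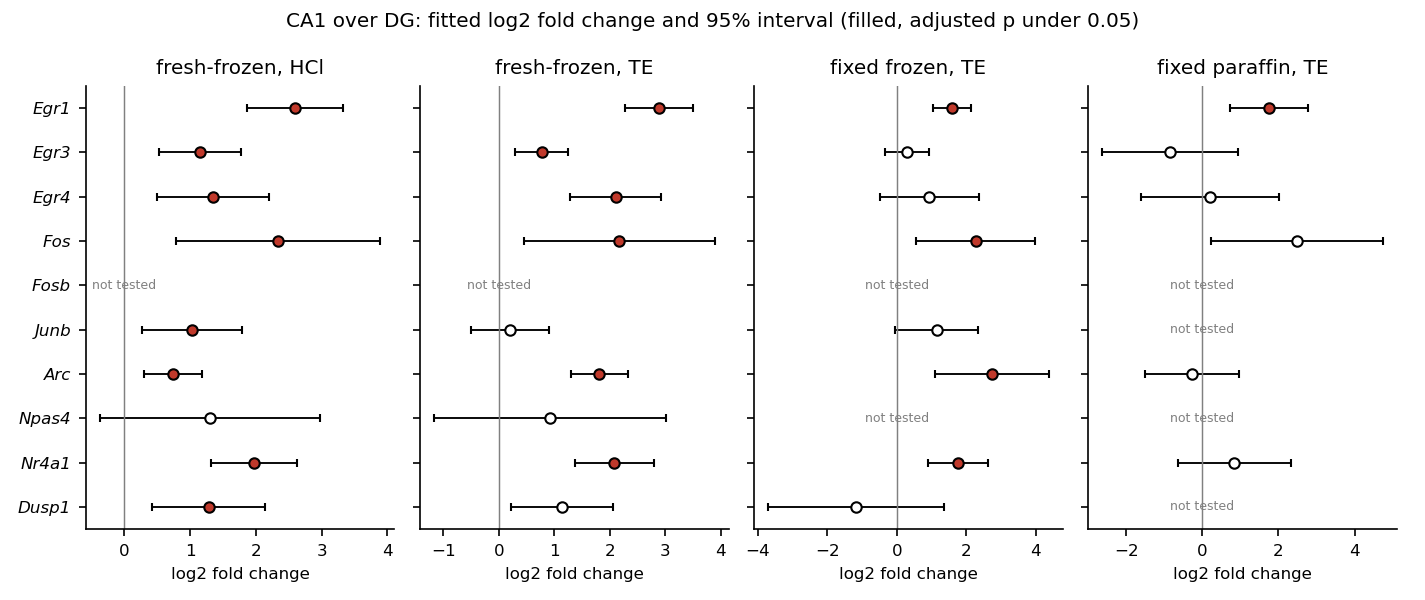
Fitted log2 fold change of CA1 over DG (x axes) with its 95% interval for each member (y axis) in the 4 conditions. Filled points passed an adjusted p under 0.05 and members under 10 UMIs in the fit were not tested. The called members lay to the right of 0, 8 with HCl, 6 with TE, 4 in fixed frozen and 1 in paraffin sections.

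CA3 differed from DG in fewer members. With HCl 1 of 10 tested members (Egr3) was called higher in CA3, where 4.46% of all genes tested were, and 3 with the replicate block. With TE 2 of 9 were called higher (Egr1 and Arc, 4.35% of all genes). After fixation and freezing 0 of 7 were called higher by edgeR (4.29% of all genes), with 0 at an unadjusted p under 0.05 and 0 by DESeq2, and in paraffin sections 0 of 5 (1.95% of all genes), with 1 at an unadjusted p under 0.05 (Egr1) and 0 by DESeq2. CA1 exceeded CA3 in 2 of 10 members with HCl (Egr1 and Nr4a1, 4.28% of all genes), in 4 of 9 with TE (Egr1, Egr4, Arc and Nr4a1, 1.99%), in 2 of 7 in fixed frozen sections (Egr1 and Nr4a1, 3.31%) and in 0 of 6 in paraffin sections by edgeR (0.64%), with 1 at an unadjusted p under 0.05 (Fos) and 0 by DESeq2. In the 3 comparisons without a call DESeq2 gave no adjusted p to 5 of 7 members for CA3 over DG in fixed frozen sections, 3 of 5 for CA3 over DG in paraffin sections and 5 of 6 for CA1 over CA3 in paraffin sections. No member was called lower in the first region of any pair. These pairs share libraries with each other, so that the counts are not independent. Of the 6 oligodendrocyte markers, 6, 6, 4 and 1 were called higher in CA3 than in DG and 1, 0, 6 and 0 higher in CA1 than in CA3 with HCl, with TE, in fixed frozen and in paraffin sections, and their part was not tested.

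Other genes of the same pathways did not share a direction. Among 34 further primary response genes, the numbers called higher and lower in CA1 than in DG were 4 and 3 of 31, 7 and 3 of 30, 5 and 4 of 19 and 0 and 0 of 17 tested with HCl, with TE, in fixed frozen and in paraffin sections. For 18 later activity-regulated genes, which encode secreted and synaptic proteins made after the first wave, they were 1 and 5 of 18, 3 and 5 of 16, 2 and 6 of 13 and 0 and 1 of 12, and for 17 upstream regulators (kinases, CREB, SRF, MEF2 and their partners) 2 and 4 of 16, 1 and 3 of 15, 0 and 3 of 14 and 0 and 0 of 12. The median log2 fold change of the primary response genes was 0.24, 0.33, 0.05 and 0.20, and that of the later genes -0.25, -0.31, -0.77 and -0.21, where the medians over all genes were 0.04, 0.01, -0.11 and -0.17. Of all genes tested, 8.17%, 5.05%, 4.73% and 2.26% were called lower in CA1, beside the shares called higher given above.

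Genes of these lists called in the same direction in at least 3 of the 4 conditions were as follows, with the range of their called log2 fold changes. Higher in CA1 than in DG were Dusp6 (0.73 to 1.69), a MAP kinase phosphatase, Plk2 (1.46 to 1.5), a kinase of synaptic scaling, and Sorcs3 (0.75 to 1.40), a sorting receptor. Lower in CA1 were Jun (-4.30 to -1.78), which pairs with Fos in AP-1, Bdnf (-1.05 to -0.81), a neurotrophin, Nptx1 (-1.91 to -0.77), Nrn1 (-3.71 to -1.58), Pdyn (-4.48 to -3.05), the precursor of dynorphins, and Mrtfb (-1.26 to -0.76), a coactivator of SRF. In CA3 against DG the same rule named Nr4a3 (1.36 to 1.64), a receptor related to Nr4a1, Nptx1 (0.51 to 1.11) and Camk4 (0.97 to 1.21), a calcium-dependent kinase that phosphorylates CREB, as higher in CA3. It named Jun (-2.25 to -1.13), Inhba (-2.66 to -1.03), Kcnj4 (-2.10 to -1.03), Pdyn (-4.46 to -1.99), Scg2 (-2.37 to -1.05), Mef2c (-1.14 to -0.85) and Mrtfb (-1.17 to -0.72) as lower.

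Summed over the 10 genes, the level was 501 ± 110.4 CPM in CA1, 298 ± 36.1 CPM in CA3 and 209 ± 57.0 CPM in DG with HCl. With TE it was 518 ± 95.4 CPM, 263 ± 40.0 CPM and 157 ± 37.0 CPM. After fixation and freezing it was 604 ± 59.1 CPM, 282 ± 69.5 CPM and 255 ± 20.3 CPM, and in paraffin sections 291 ± 144 CPM, 232 ± 46.4 CPM and 178 ± 68.5 CPM. The order of the means was CA1, CA3, DG in all 4 conditions, and CA1 lay above both other regions without overlap in the 3 frozen conditions but not in paraffin sections. CA3 and DG overlapped in every condition except TE. A sum is weighted towards the members with the highest CPM.

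Whether a region difference itself changed with the preparation was tested with an interaction term, CA1 over DG or CA3 over DG in a condition minus the same in TE, in a fit of all 48 replicates. By edgeR 0 of 60 terms of members were called, with 10 at an unadjusted p under 0.05. DESeq2 called 0, but gave no adjusted p to 4 to 7 of the 10 members in each term. The background was low as well, at 0.741%, 0.0953% and 0.482% of 18884 genes for CA1 over DG in HCl, fixed frozen and paraffin sections, and 0.106%, 0.127% and 0.344% for CA3 over DG. The lowest adjusted p values were those of Arc. Its CA1 over DG difference against that with TE was lower in paraffin sections (log2 difference -2.21, adjusted p = 0.0877) and with HCl (log2 difference -1.14, adjusted p = 0.0909), neither called. With the replicate number as a block both terms were called (edgeR adjusted p = 0.031 in paraffin sections and 0.00873 with HCl). The block joins same-numbered replicates of all 12 libraries, which the labels do not tie to an animal. Deviations of same-numbered CA1 and DG replicates correlated at only 0.001 to 0.092 with HCl and 0.072 to 0.286 in paraffin sections. The blocked calls therefore rest on a pairing that these libraries do not show throughout. For Egr1 the difference in fixed frozen sections was -1.32 (unadjusted p = 0.0025, adjusted p = 0.422 in edgeR), where the median over all genes was -0.168.

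The preparation steps were compared over the 3 regions, 12 replicates against 12, with region as a covariate. The labels do not say whether the replicates of the 3 regions came from the same animals, in which case the 12 would not be independent and the p-values could be too small. Many genes differed at each step, so that the share of members called is read beside that of all genes and is near it for the first and second steps. Between HCl and TE in fresh-frozen sections, 3 of 10 tested members were called, where 30.6% of all genes were called in either direction. Egr1 was lower with HCl (2.12-fold, log2 fold change -1.08 ± 0.17 (SE), edgeR adjusted p = 6.65e-07) and so was Egr3 (1.38-fold, adjusted p = 0.0149), while Arc was higher with HCl (1.51-fold, adjusted p = 0.00133). Within regions, chosen after seeing the data, Egr1 had log2 fold changes of -1.10 (adjusted p = 0.000132) in CA1, -1.21 (adjusted p = 0.000398) in CA3 and -0.78 (adjusted p = 0.252) in DG. Egr3 had -0.57 (adjusted p = 0.0786), -0.08 (adjusted p = 0.871) and -0.92 (adjusted p = 0.0274), and was called in DG alone. Arc had 0.16 (adjusted p = 0.615), 0.60 (adjusted p = 0.0378) and 1.26 (adjusted p = 0.00175).

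Between fixed frozen and fresh-frozen sections, both with TE, 5 of 9 tested members were called, where 48.7% of all genes were. Arc was 4.11-fold lower in fixed frozen sections (log2 fold change -2.04 ± 0.32 (SE), edgeR adjusted p = 3.44e-10), and in each region its fixed frozen replicates lay below its fresh-frozen TE replicates without overlap. Egr1 (1.6-fold, adjusted p = 0.00128), Egr3 (1.69-fold, adjusted p = 0.000142), Nr4a1 (1.77-fold, adjusted p = 0.00567) and Fos (2.50-fold, adjusted p = 0.00846) were higher. The median log2 fold change over all genes tested was -0.39, and that of the members 0.68. The call of Fos was lost without fixed frozen CA1 replicate 2 (adjusted p = 0.177). Within regions the log2 fold change of Arc was -1.53 (adjusted p = 7.84e-05) in CA1, -2.57 (adjusted p = 2.3e-06) in CA3 and -2.58 (adjusted p = 8.84e-05) in DG, whereas Egr1 was called higher in DG alone, at 1.70 (adjusted p = 9.54e-06), with 0.43 (adjusted p = 0.155) in CA1 and 0.34 (adjusted p = 0.414) in CA3.

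Between paraffin and frozen sections of fixed tissue, 4 of 8 tested members were called, where 28.2% of all genes were. Egr3 was 3.36-fold lower in paraffin sections (log2 fold change -1.75 ± 0.33 (SE), edgeR adjusted p = 1.97e-07), with no overlap of replicates in any region, and Egr1 was 1.92-fold lower (adjusted p = 0.000692). Junb was 2.66-fold lower (adjusted p = 0.0202), except without any 1 of fixed frozen CA1 replicate 2 and fixed frozen CA3 replicate 3 (adjusted p of up to 0.13). Arc was 2.03-fold higher (adjusted p = 0.0392), except without any 1 of fixed frozen CA1 replicate 1, fixed frozen CA3 replicate 2, fixed frozen DG replicates 1, 2 and 4 and paraffin DG replicates 3 and 4 (adjusted p of up to 0.136). Its log2 fold change was -0.19 (adjusted p = 0.895) in CA1, 0.77 (adjusted p = 0.649) in CA3 and 2.79 (adjusted p = 0.000246) in DG. It was called in DG alone, where 5 UMIs were counted in fixed frozen and 28 in paraffin sections. Egr1 was near 0 in CA3 (adjusted p = 0.997) with -1.15 (adjusted p = 0.0183) in CA1 and -1.36 (adjusted p = 0.00694) in DG.

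Markers of other cells moved with the preparation too. With HCl against TE, 4 of 6 astrocyte markers were called lower and 1 higher, and 3 of 6 oligodendrocyte and 3 of 6 endothelial markers were called higher. After fixation 5 of 6 oligodendrocyte markers were called lower and 1 higher, and 4 of 6 endothelial markers were called lower. The 6 oligodendrocyte markers summed to 1789 to 2829 CPM in DG of fixed frozen sections and to 5555 to 16501 CPM in DG of paraffin sections, and all 6 were called higher in paraffin sections over the 3 regions. The 6 astrocyte markers in DG summed to 5489 to 8001 CPM with TE and 1923 to 2474 CPM in fixed frozen sections, and 5 were called lower after fixation. The 4 erythrocyte genes in DG summed to 312 to 699.6 CPM with TE and 0.0 to 46 CPM in fixed frozen sections, and all 4 were at 0 in CA1 of paraffin sections. Choroid plexus markers were uneven, with 36 to 8989 CPM in DG of paraffin sections, where 1 of the 4 was at 0. Their part in the changes of the members was not tested.

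**Figure D4:**
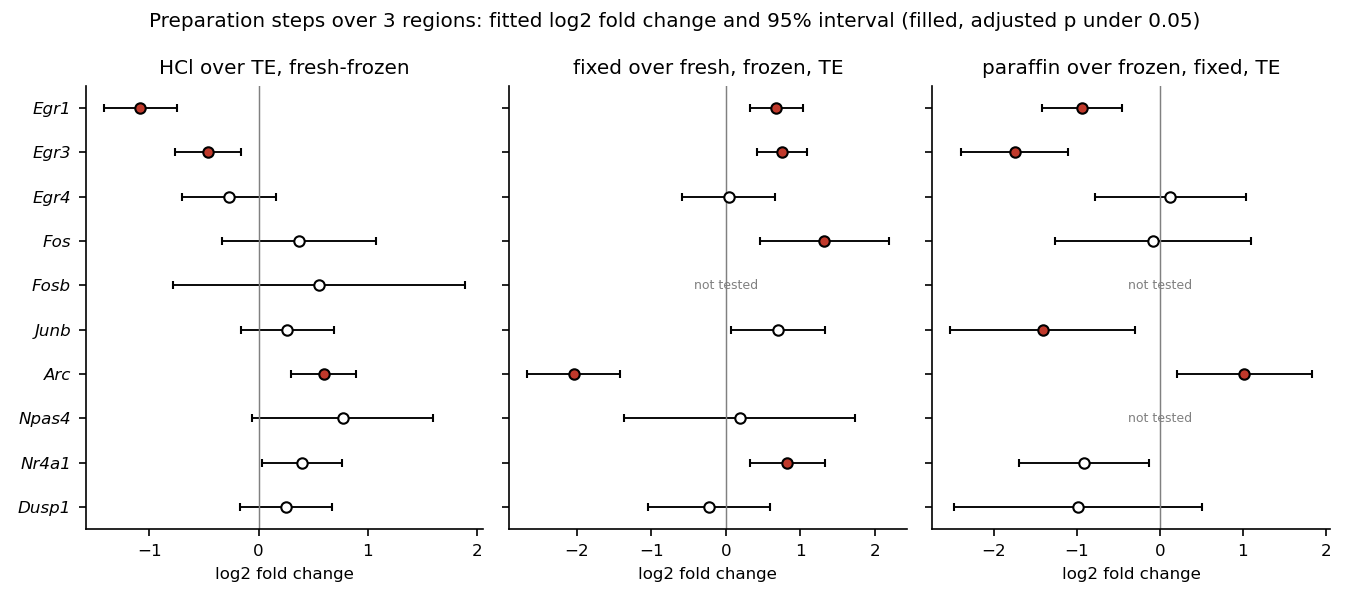
Fitted log2 fold change (x axes) with its 95% interval for each member (y axis) for HCl over TE, fixed over fresh-frozen and paraffin over frozen sections, over 3 regions. Filled points passed an adjusted p under 0.05. Over the 3 regions Arc lay on the other side of 0 from Egr1 and Egr3 in each step, while in CA1 alone all of them lay below 0 for paraffin sections, and neighbouring steps share the libraries of a condition.

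Over the same 3 steps, the numbers of further primary response genes called higher and lower were 5 and 11 of 33, 4 and 7 of 32 and 3 and 3 of 27 tested. They were 3 and 8 of 18, 2 and 6 of 18 and 1 and 4 of 16 for the later genes and 4 and 7 of 17, 1 and 9 of 16 and 0 and 3 of 14 for the upstream regulators. Of all genes tested, 16.3%, 15.8% and 13.1% were called higher and 14.3%, 32.9% and 15.1% lower in the 3 steps. Called in the same direction in at least 2 steps, with the range of called log2 fold changes, were Gadd45g (0.58 to 1.18), Per1 (0.67 to 1.84) and Plk2 (0.30 to 1.36) among the primary response genes and Crtc1 (0.88 to 1.64) among the regulators as higher. Lower were, among others, Jun (-0.68 to -0.33), Jund (-0.80 to -0.38), Klf6 (-0.98 to -0.78), Nr4a2 (-0.73 to -0.50) and Rgs2 (-1.01 to -0.82) among the primary response genes, Bdnf (-0.86 to -0.31), Inhba (-1.51 to -0.71), Nptx2 (-0.51 to -0.39), Scg2 (-1.33 to -0.97), Sorcs3 (-0.82 to -0.37) and Vgf (-1.69 to -0.32) among the later genes and Crebbp (-0.36 to -0.30), Mef2a (-0.74 to -0.36), Mef2c (-0.71 to -0.68), Mef2d (-0.70 to -0.61) and Mrtfb (-0.49 to -0.40) among the regulators. Gadd45g is a stress-response gene and Per1 a clock gene, and Mef2a, Mef2c and Mef2d encode MEF2 factors, which act on activity-regulated promoters.

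Whether the members vary together between replicates was described by deviations from the library mean of log2(CPM + 10), for members with a mean of at least 5 UMIs. Over the 24 fresh-frozen replicates this left Egr1, Egr3, Egr4, Junb, Arc, Nr4a1 and Dusp1, and 18 of their 21 pairs had a positive Pearson r, with a median of 0.260 and a range of -0.14 to 0.695. Over all pairs of 10728 genes the median was 0.035, and the 5th and 95th percentiles were -0.453 and 0.52. Of the 21 pairs, 3 lay above that range, Egr1 with Arc (0.695), Egr1 with Egr3 (0.545) and Arc with Nr4a1 (0.526). Arc had the highest r with the mean of the other 6 members (0.785), and Egr4 the lowest (0.214). Egr4 with Egr1 (-0.14) and Junb with Egr1 (-0.075) were among the 3 pairs below 0.

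The pattern was not the same in each condition. Over the 12 HCl replicates the median r of 28 pairs was 0.265 (all genes 0.043), over the 12 TE replicates that of 21 pairs was -0.002 (all genes 0.022), and in fixed frozen sections that of 3 pairs was 0.131 (all genes 0.016). In paraffin sections Egr1 alone had the UMIs needed. The mean deviation of the 7 genes on the log2 scale was -0.23, 0.29, 0.27 and -0.33 in CA1 with HCl, -0.08, 0.14, 0.06 and -0.12 in CA3 and 0.34, -0.16, 0.14 and -0.32 in DG. With TE it was 0.19, -0.01, 0.03 and -0.21 in CA1, 0.06, 0.06, 0.13 and -0.25 in CA3 and 0.08, -0.23, 0.20 and -0.05 in DG. Replicate 4, which had the fewest UMIs in each library, was the lowest in 5 of these 6 libraries. Without replicate 4, with 28 pairs of 8 members, the median r was 0.216. The replicates of a library share their processing, and the deviations share depth, whose part was not tested.

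**Figure D5:**
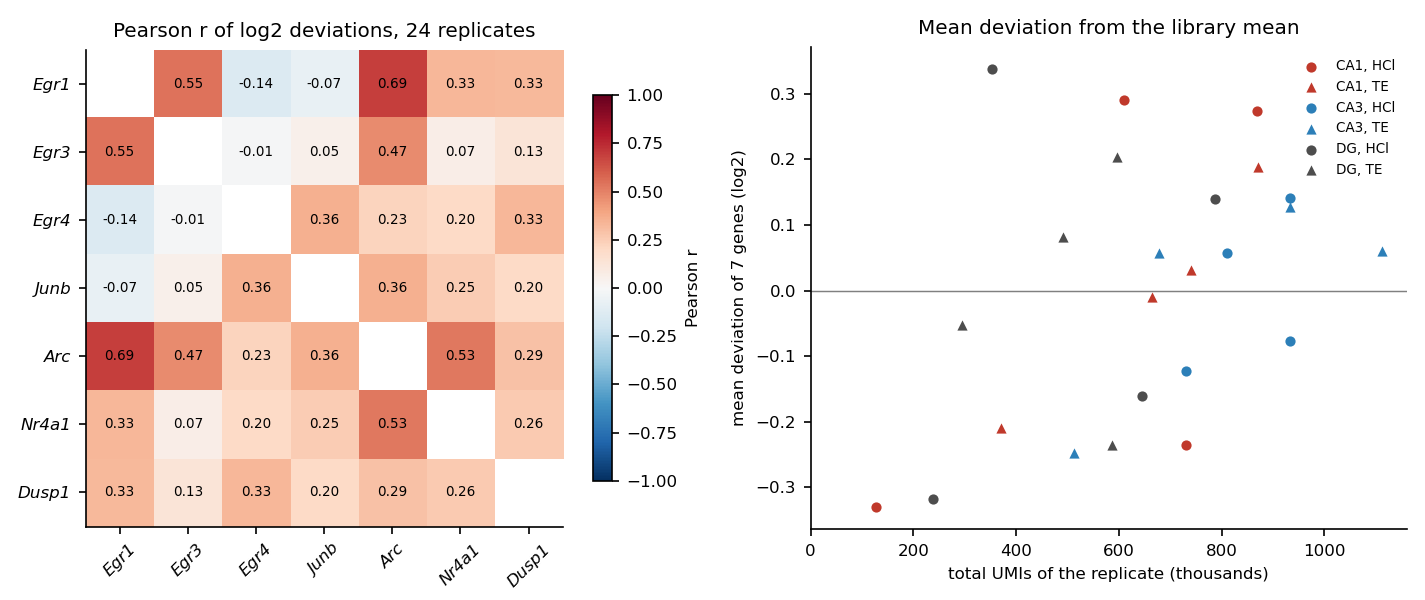
Left, Pearson r between members (axes) of log2 deviations from the library mean over 24 fresh-frozen replicates. Right, mean deviation of the 7 members (y axis, log2) against the replicate's total UMIs (x axis, scaled), by region (colour) and permeabilization (circles HCl, triangles TE). Arc with Egr1 was the highest pair, and the lowest mean deviation was that of the CA1 replicate with the fewest UMIs.

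Of 8429 other genes that averaged 10 or more UMIs, those whose deviations were most like the mean deviation of the 7 members over the 24 replicates were Gm48700 (0.822), Lrrc10b (0.799), Arhgap12 (0.797), Slc17a5 (0.787) and Tmem200a (0.774). The median over the compared genes was 0.122 and the 95th percentile 0.523. By library means over the 6 fresh-frozen libraries they included Sik3 (0.993), Hivep2 (0.990), Rasl11b (0.989) and Zfpm1 (0.988), which over all 12 libraries had r of 0.362, 0.879, 0.869 and 0.866. With 6 libraries such values are a description of these libraries.

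The spread between replicates beyond counting error, as the biological coefficient of variation of the edgeR fit, was 18.6% for Egr1, 19.0% for Egr3, 18.3% for Arc, 18.6% for Nr4a1, 23.9% for Egr4 and 30.8% for Fos with HCl, where the median gene had 19.6%. With TE it was 19.0%, 14.8%, 18.1%, 17.3%, 18.4% and 28.6%, where the median gene had 17.5%. For both fixed conditions the fit gave each gene the value of the common trend, so that no spread of single members was available.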

How the data were processed

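Libraries were made by PIC and CEL-seq2 from 12 combinations of region and histological condition with 4 barcoded replicates each. UMI counts per gene and replicate were deposited by the authors as 1 table, neither normalized nor filtered here before use. Per the labels it was made with UMI-tools 1.0.0, HISAT2 2.1.0 and featureCounts 1.6.4 on GRCm38, and the annotation release is not given in the sources used here. The labels also name DESeq2 1.20.0, which the paper applied to the finished counts. A UMI of 6 bases allows 4096 sequences, which limits high counts. The barcode table was not used.

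The 10 members were taken by symbol. The members and the gene lists were chosen with earlier results of these data known. Counts were tested by edgeR 4.0.16 (R 4.3.3, quasi-likelihood, TMM), for genes with at least 10 UMIs over the fitted replicates, with Benjamini-Hochberg adjustment over all genes tested. P-values rest on the spread between the replicates of a library, which edgeR estimates with information shared over genes. For region pairs in the fixed conditions, for paraffin against frozen sections and for the interaction terms it was largely shared over genes. Those p-values do not measure a member's own spread, and the others measure it only in part. Of list genes, those called in the same direction in at least 3 of 4 conditions or 2 of 3 steps were named. The genes most alike were the 5 with the highest r among genes averaging 10 or more UMIs. A few genes that these rules name are not reported here. The fit was tested on data simulated for CA1 and DG with TE alone, with a spread common to all genes and changes in well-counted genes. Changes in sparse genes and the fixed conditions were not simulated. Alternatives were DESeq2 1.42.0, its size factors, other filters, a replicate block, thinning, a correction for UMI collisions, left-out replicates and fits of all 3 regions.

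The labels do not tie replicate numbers to animals. Deviations of same-numbered replicates correlated above 0.1 in every pair for CA3 and DG with HCl (0.228 to 0.433) and for the 3 pairs of regions with TE (0.18 to 0.338), where blocked values are printed if they change a call. Gene positions are those of GENCODE M21, where 32515 of 32546 gene IDs were found, and promoter windows from RefSeq (GRCm38.p6).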

Additional observations from a re-analysis of the deposited data

Results flagged for a closer look

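In 18 of 127 groups of 4 replicates, 1 replicate stood apart from the other 3, by a gap that passed Dixon's 95% critical value for 4 values. Chance alone gives about 1 in 20 such groups for continuous values, and this rate does not apply to the 10 groups in which the other 3 replicates held 0 UMIs. With at least 4 UMIs, the replicate stood above the others for Egr1 in fixed frozen DG replicate 4 (138 CPM from 15 UMIs), Egr3 in paraffin DG replicate 3 (62.8 CPM from 14 UMIs), Fos in HCl CA1 replicate 4 (31.4 CPM from 4 UMIs), Junb in fixed frozen DG replicate 4 (36.7 CPM from 4 UMIs), Arc in HCl CA3 replicate 3 (174 CPM from 141 UMIs) and Nr4a1 in HCl DG replicate 1 (45.4 CPM from 16 UMIs). The other 3 replicates of Egr1 in fixed frozen DG read 66.0 to 68.4 CPM, and those of Nr4a1 in HCl DG 12.6 to 16.5 CPM. With 1 or 2 UMIs against 0 in the other 3 replicates, it stood above them for Fos in fixed frozen CA3 replicate 2 (14.1 CPM from 2 UMIs), Fos in paraffin CA3 replicate 1 (16.5 CPM from 2 UMIs), Fosb in TE DG replicate 2 (1.7 CPM from 1 UMI), Npas4 in fixed frozen CA1 replicate 2 (5.53 CPM from 1 UMI), Npas4 in fixed frozen DG replicate 2 (3.26 CPM from 1 UMI), Npas4 in paraffin CA3 replicate 3 (20.9 CPM from 1 UMI), Npas4 in paraffin DG replicate 3 (4.48 CPM from 1 UMI), Dusp1 in fixed frozen CA1 replicate 2 (11.1 CPM from 2 UMIs), Dusp1 in paraffin CA1 replicate 3 (14.1 CPM from 1 UMI) and Dusp1 in paraffin CA3 replicate 1 (8.27 CPM from 1 UMI). Dusp1 in fixed frozen DG replicate 4 was lowest at 0 CPM, where the other 3 replicates read 12.4 to 14.9 CPM. The sum over the 10 genes in fixed frozen CA1 replicate 4 was lowest at 517 CPM from 28 UMIs, where the other 3 replicates read 622 to 641 CPM. No region difference of a member was called as different between conditions without the replicate block. With it 2 were called, both of Arc, in HCl and paraffin libraries where same-numbered replicates did not all correlate above 0.1.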

How the results depend on the processing

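Of 42 calls of members, 25 remained whichever single replicate was left out, and 7 of the 32 that could be tested remained after thinning to the smallest total. Thinning left 2 of 19 members called between CA1 and DG, 0 of 3 between CA3 and DG, 1 of 8 between CA1 and CA3, 0 of 3 for HCl against TE, 2 of 5 for fixed against fresh-frozen and 2 of 4 for paraffin against frozen sections. DESeq2 called 10 between CA1 and DG and left 10 without an adjusted p, and filterByExpr left 2 for paraffin. With the replicate block there were 6 calls between CA3 and DG. They were 3 with HCl, 2 with TE, 0 in fixed frozen and 1 in paraffin sections. Between CA1 and DG the blocked calls were 8, 6, 3 and 1 in that order, and between CA1 and CA3 4, 5, 2 and 0. The block also called 2 interaction terms, both Arc in CA1 over DG (edgeR adjusted p = 0.00873 with HCl and 0.031 in paraffin sections). The pairing of numbers is not given by the labels and did not show throughout in the HCl and fixed libraries. Leaving out 1 replicate gave 14 to 19 calls between CA1 and DG, 2 to 4 between CA3 and DG and 7 to 10 between CA1 and CA3. It gave 3 to 4 for HCl against TE, 4 to 6 for fixed against fresh-frozen and 3 to 5 for paraffin. For the interactions a replicate number was left out of all libraries at once, in 4 fits, which gave 0 calls. Single replicates were not left out there. Fits within single regions were chosen after seeing the data. For HCl against TE they called Egr1 in CA1, Egr1 and Arc in CA3, and Egr3 and Arc in DG. Over all genes 3072 of 14801, 2079 of 15373 and 2167 of 14102 tested were called. For fixed against fresh-frozen they called Fos, Arc and Nr4a1 in CA1, Junb and Arc in CA3, and Egr1, Egr3, Arc and Nr4a1 in DG (all genes 3284 of 12653, 4037 of 13348 and 4732 of 12592). For paraffin they called Egr1 and Egr3 in CA1, none in CA3, and Egr1, Egr3 and Arc in DG (all genes 957 of 7736, 944 of 8230 and 2076 of 10212). Arc in CA1 turned to -0.19 for paraffin. The median r of the members was 0.217 to 0.255 under other pseudocounts, 0.216 without replicate 4, 0.246 as Spearman's rho and 0.499 with a mean of at least 20 UMIs (6 pairs). DESeq2 size factors moved the median of all genes by 0.202 (log2) for paraffin against frozen sections. They moved it by 0.327 for the interaction term of CA1 over DG in paraffin sections. The causes were not tested, except that thinning leaves fewer UMIs. Fosb had too few UMIs for a test in most comparisons of regions and conditions.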
